A study of Homo sapiens with 16 samples.

Results

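Cytosolic ribosomal proteins are the protein parts of the ribosome, and their genes were followed here across 8 human B-cell lines treated with AFN700 or solvent. A gene was taken when its platform symbol was RPL or RPS with a number, including the A, X, L and P endings, and it had a probe set listing no other gene. S6 kinase genes, the L1-type paralogues and pseudogenes were left out. This gave 57 genes of the 19775 with a probe set of their own, 36 of the large 60S subunit by symbol and 21 of the small 40S subunit. Another 15 ribosomal protein symbols occurred on probe sets shared by several genes and were not analysed. No measured value entered the rule for the genes, but the probe set of highest mean intensity stood for each. The choice was made with earlier results of these data known.

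The series asked how mantle cell lymphoma lines respond at the RNA level when IKKbeta, the kinase that activates classical NF-kB, is inhibited. Each line received 5 uM AFN700, the IKKbeta inhibitor, or 0.025% DMSO for 20 h, and 1 Affymetrix array was run per line and treatment, 16 in all. By the labels, REC-1 and SP49 are sensitive to "stn" and ibrutinib, a BTK inhibitor, and the other 6 lines, Z-138, GRANTA-519, JVM-13, JVM-2, HBL-2 and Maver-1, are insensitive. The medium was DMEM for GRANTA-519 and RPMI for the rest, all with fetal bovine serum. The treated JVM-13 array is titled AFN700, but its treatment and description fields read AFN701. Here it stands for the treated sample of that line. Each line is a single culture per treatment, so a value of 1 line has no error of its own and its difference from another line may be technical.

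A ribosome needs its proteins in about equal numbers, and in animal cells this is achieved in part by a shared mode of control. Most ribosomal protein mRNAs start with a C followed by a run of pyrimidines, the 5' terminal oligopyrimidine (TOP) motif, through which mTOR signalling and LARP1 set their translation. B-cell lymphoma lines grow fast and carry these mRNAs among their most abundant. A few members have paralogues with a narrower use, such as RPL3L in muscle and RPL39L and RPL10L in testis, and RPS27L is a known target of p53.

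The start regions of 8 genes are shown because the TOP motif is what most members share and because RPS27L, which differed most clearly between lines, lacks it. Each sequence runs from 80 bases before to 20 bases after the annotated start in RefSeq (GRCh38.p14), 5' to 3' on the gene's strand. Capitals mark at least 5 pyrimidines in a row, counted from the first C that begins such a stretch no further than 5 bases from the start. In RPL29 and RPL36AL the run itself opens before that window, with 2 and 7 more pyrimidines just ahead of the capitals. RPS27 (chr1:153990682-153990781, plus strand) stands beside its paralogue RPS27L (chr15:63157458-63157557, minus strand). RPL39 (chrX:119791611-119791710, minus strand) is the common counterpart of RPL39L. RPL29 (chr3:51995876-51995975, minus strand) and RPL12 (chr9:127451387-127451486, minus strand) differed between lines. RPS28 (chr19:8321416-8321515, plus strand) varied least over the 8 DMSO arrays as deposited, RPS9 (chr19:54200778-54200877, plus strand) was the member furthest down with AFN700 in HBL-2, and RPL36AL (chr14:49620607-49620706, minus strand) is a paralogue of RPL36A.
RPS27: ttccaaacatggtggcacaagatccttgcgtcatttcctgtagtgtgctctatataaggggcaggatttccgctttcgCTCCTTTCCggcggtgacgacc
RPS27L: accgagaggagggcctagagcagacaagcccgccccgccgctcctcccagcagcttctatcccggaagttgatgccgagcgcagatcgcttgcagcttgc
RPL39: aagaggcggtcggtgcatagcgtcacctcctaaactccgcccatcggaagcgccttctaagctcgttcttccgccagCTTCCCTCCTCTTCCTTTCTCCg
RPL29: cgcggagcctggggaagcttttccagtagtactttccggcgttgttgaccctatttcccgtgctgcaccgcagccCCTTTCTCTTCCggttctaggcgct
RPL12: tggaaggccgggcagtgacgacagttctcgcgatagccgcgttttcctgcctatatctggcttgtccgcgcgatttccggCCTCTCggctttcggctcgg
RPS28: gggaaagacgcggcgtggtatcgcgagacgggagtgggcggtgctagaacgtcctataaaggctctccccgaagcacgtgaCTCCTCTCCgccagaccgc
RPS9: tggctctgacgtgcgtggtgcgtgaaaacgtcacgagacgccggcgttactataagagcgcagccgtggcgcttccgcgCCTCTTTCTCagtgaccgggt
RPL36AL: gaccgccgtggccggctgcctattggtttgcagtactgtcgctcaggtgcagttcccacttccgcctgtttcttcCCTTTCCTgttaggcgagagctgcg

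A C at the annotated start followed by at least 4 pyrimidines, whatever the base before it, was present in 34 of the 49 members with a start region in the table (69.4%), against 5.14% of 27305 genes. Within 5 bases of the start such a stretch was found in 41 of 49 (83.7%), against 25.2% of genes. The 8 members without it were RPS27L, RPL10L, RPL27, RPL6, RPL9, RPS15, RPS29 and RPS4X. Of these only RPS27L differed between lines in the test given below. Other motifs were searched on both strands from 250 bases before to 50 after the start. CCGGAAG, a core of the ETS family site, was present in 18 members (36.7%) against 12.2% of genes, and AAGATGGC, a core of the YY1 site, in 4 (8.2%) against 3.52%. The G+C box GGGCGG was in 29 (59.2%) against 48.3%, the E box CACGTG in 3 (6.1%) against 8.77%, and TATAAA in 4 (8.2%) against 14.0%. The 10-base NF-kB motif occurred in 2 members (4.1%) against 7.09% of genes. These are matches of letters only.

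Values are MAS5 intensities, scaled by the authors to 1 common average per array, and levels and differences below are on log2(intensity + 3.3). Of the 57 members, 55 passed the filter on low values and were among the 12305 genes tested. RPL3L, at intensities of 0.4 to 4.2, and RPL36A, at 4.7 to 25.9, did not pass, and RPL10L passed at only 44.2 to 85.7. On each array 44 to 51 of the 55 tested members were among the brightest 1% of genes, and the 55 held 3.01% to 4.61% of the summed signal. Probe sets differ in how well they hybridise, so levels are compared between arrays and not between genes. The B-cell markers CD79A, CD79B, MS4A1, CD22 and PAX5 had median intensities of 486 to 4269. No measured marker of T cells, myeloid cells, fibroblasts or epithelium had a median above 100. CCND1, which encodes the cyclin D1 that defines mantle cell lymphoma, was at 172 to 2329 in 6 lines but at 78.7 and 79.1 in JVM-2 and at 4.8 and 2.3 in JVM-13. SOX11 was also near background in JVM-2 and JVM-13, at 0.1 to 1.4, and CD5 was at 71.0 and 89.2 in Maver-1 and at 0.6 to 20.6 in the other 7 lines.

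One array stood apart before any comparison. The DMSO array of JVM-13 had a median log2 level of 7.25 over all genes tested, against 7.82 to 8.02 on the other 15, and a 99th percentile of 3503 against 2402 to 2966. The main counts, spans and correlations that it moves are given with and without it. The ratio of 3' to 5' actin signal, which rises when RNA is degraded, went from 1.9 to 16.7 with AFN700 in HBL-2, from 10.3 to 18.8 in Maver-1 and from 2.73 to 6.39 in SP49. It changed by less than 2 units in the other 5 lines.

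Under DMSO the family as a whole differed between lines. The median of the 55 members was 11.77 in REC-1, 11.91 in SP49 and 11.95 in Z-138. It was 12.01 in Maver-1 and 12.05 in JVM-2, then 12.18 in both GRANTA-519 and HBL-2, and reached 12.45 in JVM-13. From REC-1 to JVM-13 this was a range of 0.68, or 1.60-fold, and without JVM-13 it was 0.41, or 1.33-fold. With AFN700 the same medians lay between 12.05 in SP49 and 12.23 in REC-1, a range of 0.17 or 1.13-fold. REC-1, the lowest line under DMSO, was the highest with AFN700. Since every array is scaled to 1 average, a change in RNA per cell cannot be told apart from none. Large-subunit and small-subunit members moved together: in REC-1 their DMSO medians were 11.81 and 11.76, and in JVM-13 they were 12.47 and 12.45. The 492 other genes with a mean log2 level above 11 were also lowest in REC-1 (median 11.21) and highest in JVM-13 (11.65) under DMSO, against 11.37 to 11.44 in the other 6 lines. The members' order at those ends was therefore shared by other bright genes of the same arrays, and how far array scaling sets it was not tested.

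**Figure D1:**
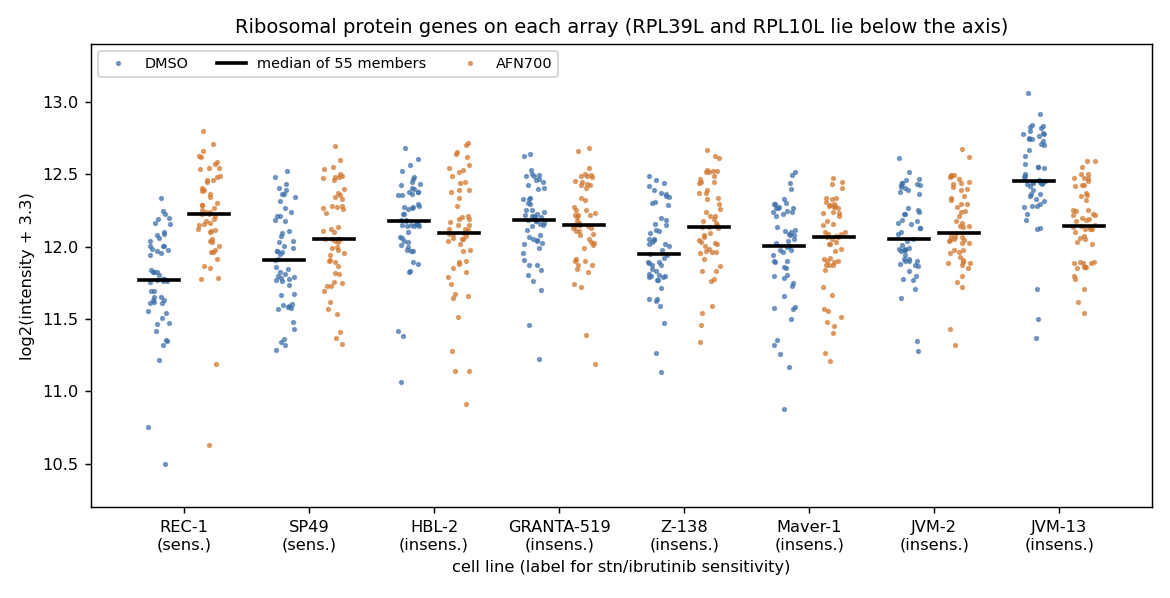
Log2(intensity + 3.3) of the tested ribosomal protein genes (vertical axis) in each cell line (horizontal axis), DMSO in blue and AFN700 in orange. Each point is 1 gene on 1 array and each black bar the median of all 55. RPL39L and RPL10L lie below the axis. The DMSO medians run from 11.77 in REC-1 to 12.45 in JVM-13, and the AFN700 medians from 12.05 to 12.23.

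Member by member, the spread between lines was small. The SD over the 8 DMSO arrays had a median of 0.23 over the 55 members, with a range of 0.13 to 0.81, against 0.70 over all genes tested. Without JVM-13 it was 0.16 against 0.57, and over the 8 AFN700 arrays 0.10 against 0.61. Brightness goes with a small spread on these arrays: the other 492 genes above a mean log2 of 11 had a median SD of 0.25 under DMSO, close to that of the members, and 0.20 with AFN700. Only RPL39L had an SD above the median of all genes. RPL12, RPL29, RPL32, RPL8, RPL10L, RPS9 and RPS27L were the other 7 members with an SD above 0.3. Without JVM-13, RPL32, RPL8 and RPS9 were at 0.24 to 0.28, and 5 members were above 0.3.

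**Figure D2:**
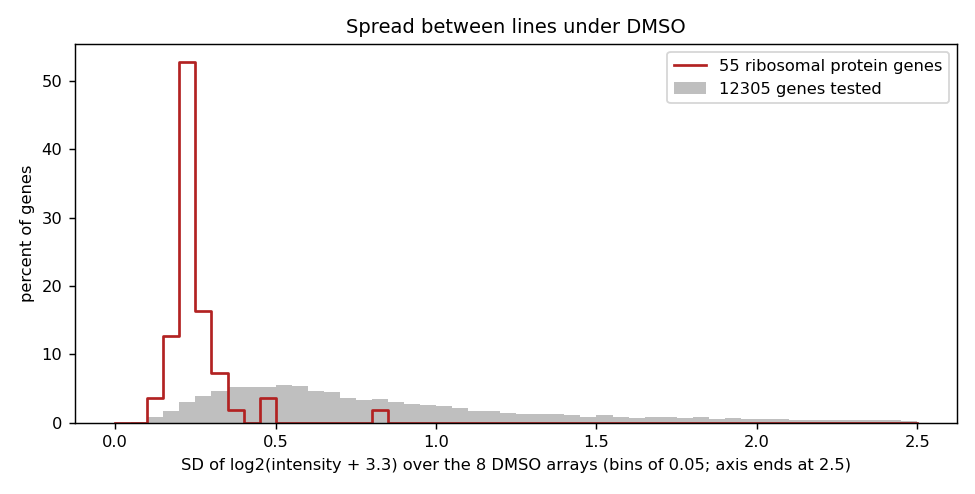
Percent of genes (vertical axis) by the SD of log2(intensity + 3.3) over the 8 DMSO arrays (horizontal axis, bins of 0.05, ending at 2.5), for all 12305 genes tested in grey and the 55 ribosomal protein genes in red. The red outline peaks at low values, with a median of 0.23 against 0.70, and its separate point on the right is RPL39L at 0.81.

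Members also followed one another across lines. The median correlation between pairs of members over the 8 DMSO arrays was 0.85, and 61.5% of pairs exceeded 0.8. Without JVM-13 the median was 0.70, and all pairs share the same arrays and scaling, so this describes the arrays as well as the genes. JVM-13 had the highest DMSO value for 49 of the 55 members. The lowest was in REC-1 for 36, in SP49 for 9 and in Maver-1 for 6.

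Limma's F test for the line, over all 16 arrays with a term for AFN700, called 72.4% of all genes tested at an adjusted p under 0.05. Of the 55 members it called 4, namely RPS27L, RPL39L, RPL29 and RPL12. The test sets the differences between lines against the disagreement of the 2 arrays within a line, and the median F was 1.54 over members and 6.04 over all genes. Few members were therefore called where most genes were. Of the 492 other genes with a mean log2 level above 11, the test called 240 (48.8%). Without JVM-13 the test called 8 members and 84.6% of all genes. Without Maver-1 it called 2 members, RPL12 and RPS27L, and 66.1% of all genes.

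RPS27L encodes a close relative of the small-subunit protein RPS27. Its DMSO intensity was 1441 in REC-1, 2136 in HBL-2, 2646 in JVM-13, 2763 in SP49, 2845 in Z-138, then 3030 for Maver-1, 3857 for JVM-2 and 4243 for GRANTA-519. With AFN700 the values were 1582, 2259, 3504, 3445, 2818, 2918, 3788 and 3367 in the same order of lines. REC-1 and HBL-2 were the lowest lines under both treatments, and the top line changed from GRANTA-519 to JVM-2. The DMSO range was 2.94-fold and the SD 0.49, with an adjusted limma p of 0.0001086 for the line. A second probe set for RPS27L gave 728 in REC-1 and 3056 in GRANTA-519 under DMSO and correlated at 0.98 with the first over the 8 lines. RPS27 itself, named here as the paralogue, lay between 4270 in HBL-2 and 6504 in JVM-13 and was not called (adjusted limma p 0.902).

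RPL39L encodes a paralogue of the large-subunit protein RPL39. Its DMSO intensity was 95.5 in JVM-13, 344 in HBL-2, 362 in REC-1, 404 in JVM-2, 420 in SP49, 421 in GRANTA-519, 490 in Z-138 and 664 in Maver-1. With AFN700 it was 253, 215, 359, 370, 389, 278, 535 and 776 in the same order. Maver-1 was highest and Z-138 the next under both treatments, while JVM-13 was lowest only under DMSO, where almost every other member was highest in that line. The line term had an adjusted limma p of 0.00993. Without JVM-13 it was 0.002209, with an SD of 0.32 in place of 0.81, and without Maver-1 it was 0.05582 and the call was lost.

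RPL29, a protein at the surface of the large subunit, had DMSO intensities of 1881 in Maver-1, 2378 in REC-1, 2859 in SP49, 3497 in Z-138, 3643 in JVM-2, 3797 in HBL-2, then 4173 for GRANTA-519 and 5228 for JVM-13. With AFN700 these were 2365, 3529, 3035, 3649, 4198, 2478, 4164 and 3559. Maver-1 was the lowest line under both treatments, and JVM-13 dropped from the top to the middle. A second probe set of RPL29 gave 1091 in Maver-1 under DMSO and followed the first at a correlation of 0.98. The adjusted limma p was 0.01914. The call was lost without Maver-1 (adjusted limma p 0.1589) and, with all lines kept, in a fit with no variance trend (0.0924). The actin and GAPDH 3'/5' ratios of the Maver-1 DMSO array were 10.3 and 3.96, against 1.9 to 5.06 and 1.2 to 2.76 on the other DMSO arrays, and their part in the level of RPL29 was not tested.

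RPL12, a protein near the binding site of the elongation factors, had DMSO intensities of 2588 in SP49, 2616 in REC-1, 3057 in Maver-1, 3561 in Z-138, 3751 in JVM-2, then 3962 for GRANTA-519, 4656 for HBL-2 and 5278 for JVM-13. With AFN700 they were 2637, 3724, 3012, 3858, 3807, 3859, 3697 and 3699. SP49 and Maver-1 were then lowest and the other 6 lines were within 3697 and 3859. The adjusted limma p was 0.02492. The call was lost without SP49 (adjusted limma p 0.1473), with arrays centred on all genes (0.060) and with no variance trend (0.156).

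**Figure D3:**
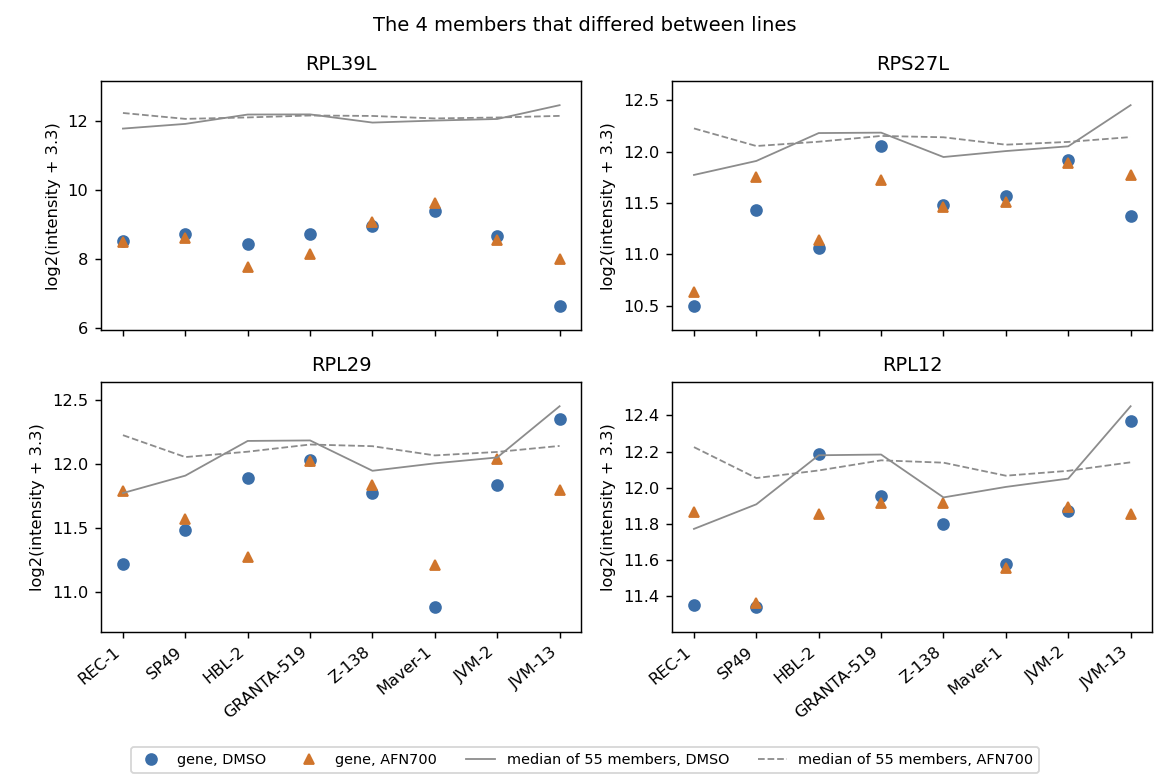
Log2(intensity + 3.3) (vertical axes, each panel on its own scale) of RPL39L, RPS27L, RPL29 and RPL12 in the 8 lines (horizontal axis), with DMSO as blue circles and AFN700 as orange triangles, 1 array each. Grey lines are the median of the 55 members under DMSO (solid) and AFN700 (dashed). RPL39L is lowest in JVM-13 under DMSO (6.63) and RPS27L lowest in REC-1 (10.50 under DMSO and 10.63 with AFN700).

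To see members apart from the family, each array was centred on the members' median. The median SD under DMSO then fell to 0.095, and 9 members were called for the line where 65.1% of all genes were. These were RPL39L, RPS27L, RPL29, RPL12, RPL14, RPL32, RPL11, RPS12 and RPL27A. Relative to the family, RPL29 was at -1.13 in Maver-1 and -0.10 in JVM-13, RPL32 at -0.68 and -0.18, and RPL14 at -0.65 and -0.32. Maver-1 was thus the lowest line for all 3 of these large-subunit members, and it was also lowest relative to the family for RPL8 and RPS9. Its DMSO array had the highest actin and GAPDH 3'/5' ratios of the 8. In HBL-2, where the actin ratio went up with AFN700, the same genes had negative differences, from -0.20 for RPL32 and -0.41 for RPL14 to -0.83 for RPS9. The actin ratio also went up in Maver-1 and SP49. There the same genes ran from 0.07 for RPL8 to 0.33 for RPL29 in Maver-1. In SP49 they ran from 0.001 for RPS9 to 0.21 for RPL32. The part of RNA integrity in these levels was not tested. RPS12 of the small subunit ran from 0.08 in HBL-2 to 0.43 in REC-1, and RPL11, a ribosomal protein that binds MDM2, from -0.20 in GRANTA-519 to 0.18 in JVM-13. RPL27A stayed within -0.09 and 0.27.

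The members of most similar profile to RPL29 over the 8 DMSO arrays were RPL32 (r = 0.94), RPS9 (0.92) and RPL8 (0.91). RPL8, a core large-subunit protein, was lowest in Maver-1 at 2894 and highest in JVM-13 at 5520, and RPS9, an early-binding small-subunit protein, had the same ends at 2302 and 4456. RPL32 also ran from 2556 in Maver-1 to 4944 in JVM-13. Without JVM-13 these 3 correlations were 0.92, 0.88 and 0.86, and the highest values were 4089 for RPL32 and 4000 for RPS9, both in HBL-2, and 4623 for RPL8 in GRANTA-519. The nearest members to RPS27L were RPS21 (0.60), RPS6 (0.52) and RPLP1 (0.51), and without JVM-13 the same pairs were at 0.85, 0.96 and 0.80. The nearest to RPL39L over the 8 arrays were RPS27L (0.18), RPS28 (-0.06) and RPL10L (-0.16), and without JVM-13 the same pairs were at 0.38, 0.59 and 0.62. These correlations rest on 8 or 7 arrays that share scaling and are descriptions.

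Other members of wide spread followed the common pattern. RPLP1, a stalk protein, ran from 2728 in REC-1 to 5583 in JVM-13 and RPL19 from 2827 to 5378 in the same lines. RPL11 and RPS18 spanned 1.86-fold and 1.89-fold. Without JVM-13 the spans were 1.57-fold for RPLP1, 1.59-fold for RPL19, 1.46-fold for RPL11 and 1.43-fold for RPS18. Without JVM-13 the SD of RPLP1 was 0.21 in place of 0.29, and that of RPL11 was 0.20 in place of 0.29. At the narrow end, RPS28 of the small subunit kept between 2456 in Z-138 and 3227 in Maver-1, a 1.31-fold range on the deposited scaling. It did not follow the family: relative to the members' median it was at -0.95 in JVM-13 and -0.35 in Maver-1, with an SD of 0.19 against the median member's 0.095. After quantile normalization RPS28 was called for the line (adjusted limma p 0.0167), and as deposited it was not (0.2725). RPL27A spanned 1.33-fold, RPL7 1.47-fold, RPL6 1.49-fold and RPL38 1.54-fold, and RPL6, RPL7 and RPL38 had their highest value in JVM-13 and their lowest in REC-1. Without JVM-13, RPL7 spanned 1.19-fold, RPL6 1.23-fold and RPL38 1.26-fold, all less than RPS28, which stayed at 1.31-fold. RPL10L, a low-signal paralogue of RPL10, lay between 45.4 in GRANTA-519 and 85.7 in Z-138 and was not called for the line (adjusted limma p 0.480).

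On the probe set that stood for the gene, members known for roles of their own kept to the family range. RPS6, the substrate of S6 kinase downstream of mTOR, ran from 4267 in REC-1 to 7117 in JVM-13, with 4779 to 5572 in the other 6 lines. RPS14 and RPS19, small-subunit proteins whose partial loss impairs red cell production, spanned 1.53-fold and 1.74-fold, and RPS4X 1.53-fold. RPL22, which binds the small RNA of Epstein-Barr virus as well as the ribosome, was between 3525 and 4203 in 7 lines and at 5461 in JVM-13. A dimmer probe set of RPL22, of mean intensity 1848, ran from 755 in SP49 to 2815 in JVM-13, with an SD of 0.62 against 0.20. The other bright ones of RPL22 had SDs of 0.225 to 0.257. RPL22 was called for the line after quantile normalization (adjusted limma p 0.0357) and without _x_at and _s_at probe sets (0.00104). RPL36AL ran from 1722 in REC-1 to 3346 in JVM-13, with an adjusted limma p of 0.05285 for the line. RPLP2, a second stalk protein, was at 4200 in REC-1 and 7230 in JVM-13. Without JVM-13 the highest values were 2661 for RPL36AL in HBL-2 and 5914 for RPLP2 in GRANTA-519, and RPS14, RPS19 and RPS4X spanned 1.24-fold, 1.56-fold and 1.32-fold. None of these 7 was called with the main settings.

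A gene with several probe sets allowed a check on the arrays. The tested members had 61 other probe sets, and the 28 with a mean intensity above 1000 had a median correlation of 0.96 with the one that stood for the gene, over the 8 DMSO arrays. Their mean AFN700 difference had the same sign in 26 of 28. The exceptions in sign were RPL29, at -0.05 on its second probe set and 0.01 on the first, and RPS7, at -0.004 and 0.09. A second probe set of RPS21, of mean intensity 1248, correlated at -0.35 with the first, and the RPL22 probe set of mean 1848 at 0.67. The dimmer probe sets had a median correlation of 0.22 and an SD of 0.64.

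The lines labelled sensitive had lower DMSO values than the insensitive ones in 53 of 55 members. The median difference was -0.28, against 0.07 over all genes, of which 45.1% were lower. In limma on the 8 DMSO arrays no member passed an adjusted p of 0.05, where 0.00813% of all genes (1 gene) did, and 11 members were lower at an unadjusted p under 0.05, where 2.75% of genes were. Both sensitive lines were below all 6 insensitive lines for 19 members, where 3.49% of genes were. The members move together, so these counts are not independent of one another. Of the other 492 bright genes, 51 (10.4%) had both sensitive lines below the insensitive ones, with a median difference of -0.15.

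RPL12 had the lowest p, with means of 11.35 in the sensitive and 11.96 in the insensitive lines, a difference of -0.61 ± 0.19 (SE) and an adjusted limma p of 0.737. RPL31 had 3504 for REC-1 and 3255 for SP49, and 3885 to 5558 in the insensitive lines, a difference of -0.42 ± 0.13 (adjusted limma p 0.749). RPL3, a core protein near the peptidyl transferase centre, was at 3483 and 3582 against 4224 to 5993, a difference of -0.44 ± 0.15 (adjusted limma p 0.815). The groups did not overlap for any of these. The counts moved with the scaling and the lines. In place of 11 members at an unadjusted p under 0.05 there were 3 after quantile normalization and 1 with arrays centred on all genes. There was 1 centred on the members and 0 with no variance trend. Of all genes, 2.91%, 3.16%, 1.13% and 2.28% were lower at that cut in these runs, in that order. In place of 19 members with separate groups there were 5 after quantile normalization, 2 with arrays centred on the members and 25 centred on all genes. At an unadjusted p under 0.05 there were 7 members without HBL-2 or GRANTA-519 and 16 without JVM-13. There were 19 without Z-138 and 20 without Maver-1. Of all genes, 2.74%, 2.16%, 3.79%, 2.78% and 2.61% were lower at that cut, in the same order of lines. Without REC-1 or SP49 only 1 sensitive line remained, and the difference of RPL12 was then -0.62 and -0.605. Separate groups were seen for 30 members without Z-138, 31 without Maver-1 and 19 without JVM-13. With fewer insensitive lines, separate groups are easier to reach for every gene. The share of all genes with separate groups was not computed for any of these other runs, so their counts are not read as a result about the members.

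The family differed between the AFN700 and DMSO arrays by line, with no common direction. The median difference of the 55 members, AFN700 minus DMSO, was 0.46 in REC-1 (1.37-fold, 54 of 55 members up), 0.17 in Z-138 (53 up) and 0.16 in SP49 (50 up). It was 0.05 in Maver-1 (39 up) and 0.05 in JVM-2 (43 up). HBL-2 was at -0.04 (24 up) and GRANTA-519 at -0.003 (26 up). In JVM-13 it was -0.33 (0.797-fold), with 52 members down and 3 up. The medians of all genes tested were between -0.05 and 0.05 in 6 lines, 0.17 in HBL-2 and 0.28 in JVM-13, so in JVM-13 the members and the genes as a whole went opposite ways. The mean of the 8 line medians was 0.06 ± 0.22 (SD, n = 8 lines), and 0.12 ± 0.17 without JVM-13. The other 492 bright genes had medians of 0.19 in REC-1 (85% up) and -0.16 in JVM-13 (37.6% up), which are the same signs and smaller sizes than for the members.

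Quantile normalization, which gives all arrays 1 common distribution, brought the family medians to 0.07 in REC-1, 0.03 in SP49 and 0 in JVM-13. Centring on all genes gave 0.46, 0.14 and -0.99. The shift in REC-1 and SP49 was thus about the same after centring on all genes and smaller after quantile normalization, and that in JVM-13 differed between all 3 scalings.

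**Figure D4:**
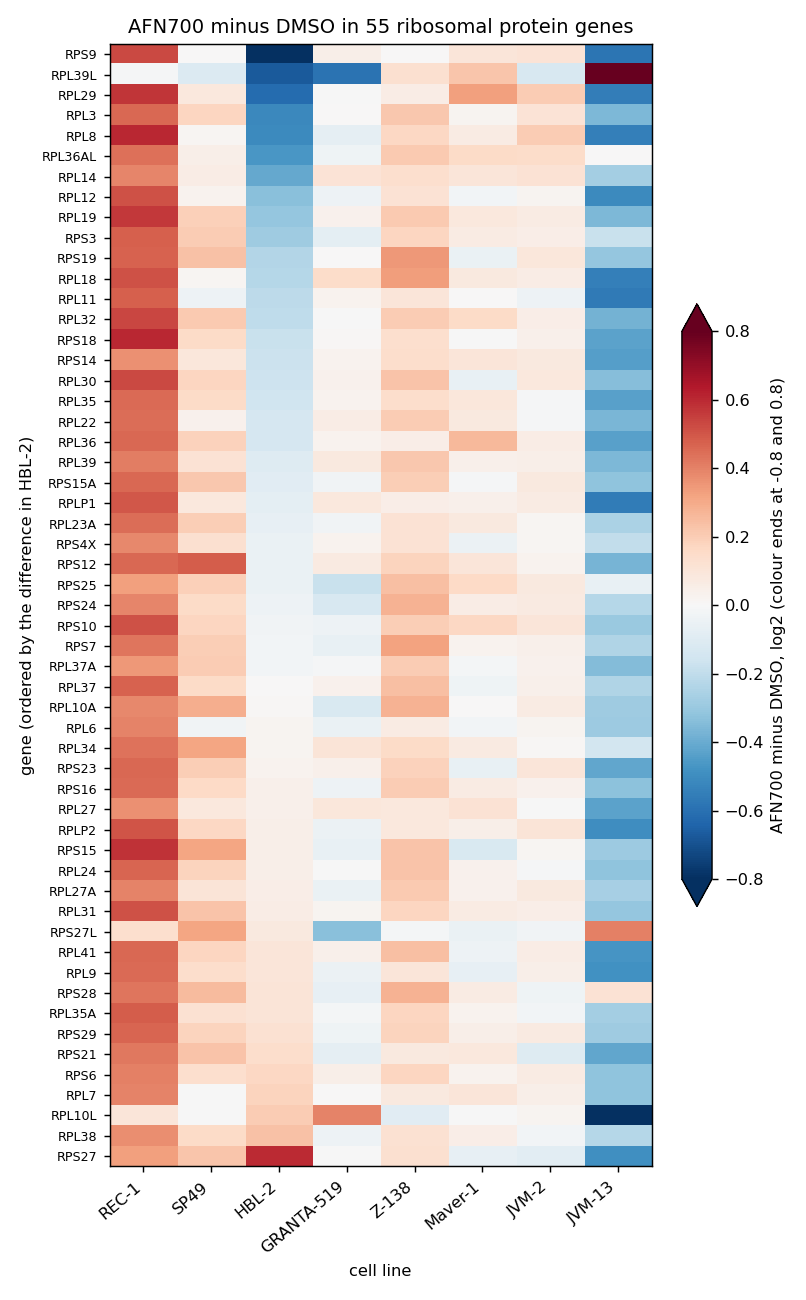
AFN700 minus DMSO log2 difference of the 55 tested ribosomal protein genes (rows, ordered by the difference in HBL-2) in the 8 lines (columns), red for higher and blue for lower with AFN700, with colours ending at -0.8 and 0.8. REC-1 is red in 54 rows and JVM-13 blue in 52. HBL-2 runs from RPS9 at -0.83 to RPS27 at 0.60.

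Over the 8 lines no member passed. Limma with the line as a block called 0 of 55 members and 0% of all genes at the adjusted threshold. With p under 0.05 and no adjustment it called 0 members and 8.18% of genes. The members' differences lay between -0.08 and 0.14, with 50 positive and 5 negative as deposited, 32 positive without REC-1 and only 4 positive with arrays centred on all genes. Their median of 0.06 equalled that of all genes tested, of which 62.9% were positive. Higher values with AFN700 in at least 7 of 8 lines were seen for 3 members, RPL31, RPL34 and RPS6, where 9.86% of genes had them. The median SE was 0.075 for members and 0.18 for all genes. More members passed an unadjusted p of 0.05 without JVM-13, and more again without JVM-13 and HBL-2, a run added after seeing the data. The share of all genes at that unadjusted cut was not computed for these runs, so this rise is not read as a result about the members. No member passed an adjusted p of 0.05 in limma, which called 10 and 38 of all genes there.

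The 5 members of lowest p among the positive differences were RPS28, RPL34, RPS25, RPL31 and RPS12. RPS28 had a difference of 0.14 ± 0.07 (SE) and the lowest adjusted limma p of the family, 0.607. It was 0.43 in REC-1, 0.28 in Z-138, 0.25 in SP49, 0.11 in JVM-13, 0.10 in HBL-2, 0.07 in Maver-1, -0.03 in JVM-2 and -0.07 in GRANTA-519. RPS28 was 1 of the 3 members that were higher in JVM-13, with RPL39L and RPS27L, and the 2 dim probe sets of RPS28 were at -1.92 and -1.56 there. RPL34 was at 0.12 ± 0.07 (adjusted limma p 0.642), and its only negative line was JVM-13 at -0.15. RPS12 was at 0.11 ± 0.08, with 0.46 in REC-1 and 0.48 in SP49. RPL31 was at 0.10 ± 0.07 and RPS25 at 0.09 ± 0.06. None of the 5 passed the threshold.

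RPS9, RPL10L, RPL11, RPL12 and RPL8 were the 5 members with negative differences. RPS9 was at -0.08 ± 0.12 (adjusted limma p 0.886), with 0.53 in REC-1, -0.83 in HBL-2 and -0.58 in JVM-13. The remaining 5 lines lay from 0.00 to 0.11. A second bright probe set of RPS9 gave -0.18 in HBL-2 and -0.46 in JVM-13. RPL8 ran from 0.60 in REC-1 to -0.51 in HBL-2 and -0.55 in JVM-13, with a difference of -0.01 ± 0.11. RPL11 was at -0.03 ± 0.09 and RPL12 at -0.03 ± 0.09. RPL10L, near the floor of the arrays, was at -0.03 ± 0.17, with -0.87 in JVM-13. In these genes the sign over 8 lines rested on JVM-13 or HBL-2: without JVM-13, RPL8 was at 0.07, RPL11 at 0.05, RPL12 at 0.04 and RPL10L at 0.09, and without HBL-2, RPS9 was at 0.03.

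In HBL-2 members parted from one another. The SD of their differences was 0.25 there, against 0.06 in JVM-2, 0.08 in Maver-1 and 0.09 in Z-138, and only JVM-13 had a higher one, 0.30. Over all genes tested the SD was also highest in JVM-13 (1.04), then HBL-2 (0.69), against 0.352 to 0.565 in the other lines. The wide spread in these lines was thus not particular to the members. The members' SD in JVM-13 includes RPL39L at 1.37, the only member to change at least 2-fold in any line, and RPL10L. In HBL-2, 24 members were up and 31 down, where 60.6% of all genes tested were up. Named after their values were seen, RPS9 was at -0.83, RPL39L at -0.67, RPL29 at -0.62, RPL3 at -0.52, RPL8 at -0.51 and RPL36AL at -0.46. At the other end RPS27 went from 4270 to 6450, a difference of 0.60, and RPL38 was at 0.24. The second probe set of RPL29 gave -1.17 in HBL-2, in the same direction. This is the line whose actin 3'/5' ratio went from 1.9 to 16.7, and the part of RNA integrity in these differences was not tested.

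The response to AFN700 was more positive in the sensitive than in the insensitive lines for 54 of 55 members. RPL39L was the exception, at -0.12. The median difference of responses was 0.33, against -0.03 over all genes, of which 46.1% were positive. In limma no member passed an adjusted p of 0.05, nor did any other gene (0%). At an unadjusted p under 0.05, 26 members were higher in the sensitive lines, where 1.09% of genes were. Both sensitive lines were above all 6 insensitive ones for 16 members, where 2.56% of genes were. Without JVM-13 these counts were 31 and 17, where 2.04% and 4.16% of genes met the same conditions. Quantile normalization gave 1 in place of 26, where 0.528% of all genes were higher at that cut. Centring on all genes, centring on the members and a fit with no variance trend each gave 0. There 0.943%, 0.065% and 0.935% of all genes were higher, in that order. The count of 26 thus rested on the deposited scaling and the variance trend. Without REC-1 only SP49 is left as a sensitive line, and its family median response was 0.157, against 0.172 in Z-138, an insensitive line. This comparison uses the same DMSO arrays as the one between sensitive and insensitive lines above, and a low DMSO value raises the response by construction. The 2 are not independent.

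RPS12 had the lowest p, with a mean response of 0.47 in the sensitive and -0.01 in the insensitive lines, a difference of 0.48 ± 0.13 (SE) at an adjusted limma p of 0.9997. RPS15, a small-subunit protein, had responses of 0.58 for REC-1 and 0.31 for SP49 and between -0.29 and 0.23 in the insensitive lines, a difference of 0.48 ± 0.15. RPL34 was at 0.44 and 0.32 against -0.15 to 0.15, a difference of 0.34 ± 0.12. The only other probe sets of RPS12 and RPS15 had mean intensities of 4.9 and 17.9, near the floor, so neither response has a check on a second probe set.

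Centring each array on the members removed the shared shift, and no member then differed with AFN700 in limma, at an adjusted p (0) or at an unadjusted p under 0.05 (0). RPS9 was lowest at -0.14 ± 0.09 (SE) relative to the family, and RPL11 and RPL12 were each at -0.09 ± 0.05. RPS27L was at 0.005 ± 0.10.

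Genes that work with the ribosome were described from lists of known function. FAU, which encodes the small-subunit protein RPS30, behaved like a member, at 0.67 in REC-1 and -0.67 in JVM-13. Of 13 other TOP mRNAs, 10 had a positive and 3 a negative AFN700 difference over 8 lines, with a median of 0.08 and 0 called by limma. Their medians were 0.33 in REC-1 (12 up), 0.15 in SP49 (10 up), -0.05 in GRANTA-519 (4 up) and -0.28 in JVM-13 (4 up), and under DMSO all 13 were lower in the sensitive lines. TPT1, a TOP gene, was at 0.35 in REC-1 and -0.36 in JVM-13, and NACA, which binds nascent chains at the ribosome, at 0.49 and -0.31. The TOP genes thus had the same signs as the members in those lines. Of 4 elongation factors 3 were positive, and EEF1A1, which brings tRNA to the ribosome, was at 0.39 in REC-1 and -0.45 in JVM-13.

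Genes that regulate or build the ribosome had mixed signs. Of 26 initiation factors 13 were higher and 13 lower over 8 lines, with a median of -0.01. Of 26 assembly factors 5 were higher and 21 lower, with a median of -0.11, and the median was -0.28 in REC-1, -0.23 in SP49 and 0.58 in JVM-13. The signs in REC-1 and JVM-13 were opposite to those of the members. Of 14 RNA polymerase I genes 9 were higher and 5 lower, of 10 chaperones 4 and 6, and of 18 signalling genes, among them MTOR, MYC and LARP1, 9 and 9. None of these genes was called by limma with AFN700. LARP1 was at -0.08 ± 0.09 and MYC at -0.16 ± 0.16.

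Against these, 15 genes of the NF-kB feedback list, which the inhibitor is meant to lower, had a median of -0.39 with 13 lower and 2 higher. TNFAIP3, which restrains NF-kB, was at -0.90 ± 0.28 (SE, adjusted limma p 0.484). The median of the NF-kB list was lowest for GRANTA-519, an insensitive line, at -0.875. The sensitive lines followed, REC-1 with -0.78 and SP49 with -0.68. Of the other insensitive lines, HBL-2 had -0.616, JVM-2 -0.373, JVM-13 0.99, Maver-1 0.068 and Z-138 -0.11. In the p53 target list, to which RPS27L is often assigned, 13 of 14 genes tested were called for the line, where 72.4% of all genes were, with a median DMSO SD of 1.20 against 0.70 over all genes. CDKN1A, which halts the cell cycle, had a DMSO difference of -3.56 between sensitive and insensitive lines (adjusted limma p 0.840). RPS27L was lowest in REC-1, and whether it moves with p53 targets was not tested.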

How the data were processed

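RNA of 8 cell lines was measured on 16 Affymetrix arrays of 54675 probe sets, 8 for DMSO and 8 for AFN700. The authors deposited linear intensities. They came from MAS5 according to the submitters' processing notes, and its version is not given in the sources used here. The authors scaled each array to a 2% trimmed mean of 150, as the values show, and no detection calls were used. Total RNA was amplified and biotin-labelled before hybridisation, per the labels' protocols.

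Probe sets listing 1 gene in the platform table (41091 probe sets) were kept, symbols were updated through the GRCh38.p14 gene table, and the probe set of highest mean stood for each of 19775 genes. Intensities became log2(intensity + 3.3), where 3.3 is the lower quartile of the values, so a log2 difference understates the change of low genes. A gene was tested when 2 or more of the 16 arrays had it above the 60th percentile of that array, which left 12305 genes.

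Tests used limma 3.58.1 in R 4.3.3 (lmFit, eBayes with a trend) and Benjamini-Hochberg adjustment over all genes tested, at 0.05. The AFN700 term had the line as a block (7 residual degrees of freedom). The block pairs the 2 arrays of 1 cell line, as the labels give it. The line was tested by an F test in that model, the responses of sensitive and insensitive lines by their difference (6 degrees of freedom), and the 2 kinds of line under DMSO on the 8 DMSO arrays (6 degrees of freedom). SE is limma's moderated standard error. The number of arrays limits the precision.

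The genes named were the 12 of largest and 5 of smallest SD under DMSO, 7 with known roles, the 5 of lowest p in each direction with AFN700, and the 3 of lowest p for each other comparison. Genes named beyond this rule are marked or serve as paralogues and list examples. Members and lists were chosen with earlier results of these data known. The fits were tested on simulated arrays. Alternatives were other pseudocounts, scalings, probe set rules, filters, no block, no trend, leaving out each line and a threshold of 0.10. Leaving out JVM-13 with HBL-2, and quantile normalization without JVM-13, were added after seeing the data. Start regions came from RefSeq, with 49 members matched. Figures were drawn with matplotlib 3.10.9.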

Additional observations from a re-analysis of the deposited data

Results flagged for a closer look

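In the named members, 63 sets of 8 values were screened for a sample far from the others, and 5 were marked, where chance gives about 1 in 20. All 5 were in JVM-13, and the DMSO array of that line stood apart over all genes. RPL39L had a DMSO log2 level of 6.63 there, with 8.44 to 9.38 in the other 7 lines, and its AFN700 difference of 1.37 was far above the next, 0.22 in Maver-1. RPL22 was at 12.42 under DMSO, with at most 12.04 in the others, and RPL7 at 12.78. RPL10L had an AFN700 difference of -0.87, with -0.09 in Z-138 as the next lowest, at intensities of 83.8 and 44.2 that lie near the floor. The part of the JVM-13 DMSO array in these values was not tested.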

How the results depend on the processing

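No member passed an adjusted p of 0.05 for AFN700 over 8 lines, for the difference of responses or for sensitive against insensitive lines under DMSO in any alternative run. Without the replicate block the AFN700 count was also 0. For the line, 4 members were called as reported, where 72.4% of all genes were. Quantile normalization gave 13 members (74.1% of all genes) and arrays centred on the members gave 9 (65.1%). The median over probe sets gave 11 (69.3%), and leaving out _x_at and _s_at probe sets also gave 11 (72.5%). With no variance trend 2 were called, RPL39L and RPS27L (67.2%), and at a threshold of 0.10 there were 8 (80.4%). Leaving out each line in turn gave 2 to 8 (65.5% to 84.6%). Leaving out JVM-13 and HBL-2 together gave 15 (89.6%), and JVM-13 after quantile normalization 21 (85.1%). The median SD under DMSO of 0.23 was 0.10 after quantile normalization, with and without JVM-13, 0.095 centred on the members and 0.45 centred on all genes. Leaving out 1 line gave 0.16 to 0.25.

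Centring on all genes turned the members' median AFN700 difference to -0.038, with 4 in place of 50 members positive, and moved the median of all genes from 0.06 to -0.04. In that setting the family median of GRANTA-519 was 0.11, after quantile normalization it was 0.029, and RPS25 was at -0.0096. RPS12 was at -0.033 as the median over probe sets, and its difference of responses at -0.0018. RPS15 had a difference of responses of -0.10 without _x_at and _s_at probe sets, and these values rest on probe sets near the floor. Leaving out each line in turn gave AFN700 differences of -0.165 to 0.028 for RPS9, -0.104 to 0.045 for RPL11, -0.106 to 0.040 for RPL12, -0.093 to 0.089 for RPL10L and -0.096 to 0.068 for RPL8. The highest was without HBL-2 for RPS9 and without JVM-13 for the other 4. Without JVM-13 and HBL-2, RPS9 was at 0.13, RPL11 at 0.087, RPL12 at 0.10, RPL10L at 0.070 and RPL8 at 0.16. Quantile normalization without JVM-13 gave 0.082 for RPL10L and 0.0073 for RPL8. The causes were not tested. Signal near background limits RPL10L, RPL3L and RPL36A.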
